A study of Homo sapiens with 6 samples.

Results

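The genes described here make up the fatty acid and cholesterol synthesis program of the sterol regulatory element binding proteins (SREBPs), compared between IGROV1 cells that were sensitive or resistant to GDC0032. The 50 listed members were found by gene symbol, and 47 of them had a row among the 14646 genes counted. They were 5 regulators of SREBP, 23 genes of the fatty acid branch and 19 genes of the sterol branch. *ME1*, *THRSP* and *ACSL5* of the fatty acid branch had no row under their symbols and were not analysed here. All 47 counted members passed the filter on low counts, so none was lost between counting and testing.

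IGROV1 is a human ovarian cancer cell line with a *PIK3CA* mutation, and GDC0032 is an isoform-selective inhibitor of PI3K that spares the beta isoform. IGROV1Sen denotes the parental, GDC0032-sensitive cells, and IGROV1Res denotes the GDC0032-resistant cells obtained from them by months of culture in rising GDC0032 concentrations. Total RNA was sequenced from 3 libraries of each. The sample titles hold an unexplained UT, taken here to mean cells without GDC0032 at harvest. IGROV1Res was 1 line selected from 1 parental line, so a change that any long culture brings and a change tied to GDC0032 cannot be told apart. The labels do not say whether the 3 libraries of a group came from separate cultures, and the p-values then measure only the spread between these libraries.

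SREBPs are made as membrane-bound precursors in the endoplasmic reticulum, where INSIG proteins hold them back together with their escort SCAP when sterols are plentiful. When sterols are low, SCAP carries the precursor to the Golgi, proteases release its transcription factor part, and this part binds sterol regulatory elements in target promoters. In mammals the product of *SREBF1* mainly serves fatty acid genes and that of *SREBF2* mainly serves sterol genes, and the SREBP-1c form is a known downstream target of insulin, AKT and mTORC1 signaling.

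Promoter sequence from RefSeq (GRCh38.p14) was available for 41 of the 47 members, as windows from 250 bases before to 50 bases after a start. Counted over all 50 listed genes there were 63 windows, which include those of *ME1* and *THRSP*. *FASN*, *DGAT1*, *DGAT2*, *ACAT2*, *FDFT1* and *SQLE* had no window and were not searched. The windows were searched on both strands for exact matches to 4 motifs. A site with other letters, or outside a window, was not counted. The classical sterol regulatory element, TCACNCCAC, was found in *SREBF2* and *ACSL1*, and in 1.13% of all 35116 windows. The CCAAT box, which NF-Y binds, was found in 30 of the 41 members and in 34.6% of all windows. The GC box GGGCGG, which Sp1 binds, was found in 39 members and in 44.95% of all windows, and the E-box CACGTG was found in 6 members and in 7.26% of all windows. A member counted once if any of its windows held the motif, so the member counts and the shares of windows are on different bases. The stretches below are printed to show how the windows of a regulator, of fatty acid genes that fell and of a sterol gene that was not called differed in these letters. Capitals mark every match to any of the 4 motifs in a stretch: the sterol regulatory element in *SREBF2*, the CCAAT box (on the other strand ATTGG) in *SREBF2*, *SCD* and *HMGCS1*, and the GC box (on the other strand CCGCCC) in *HMGCS1*, *FADS1* and *ELOVL6*. The windows of *SREBF2* and *SCD* held GC boxes nearer to the start, outside the printed stretch.
SREBF2, chr22:41832955-41833004, plus strand: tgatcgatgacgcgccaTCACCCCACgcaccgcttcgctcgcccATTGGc
SCD, chr10:100346983-100347062, plus strand: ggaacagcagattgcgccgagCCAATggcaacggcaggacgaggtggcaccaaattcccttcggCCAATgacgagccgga
HMGCS1, chr5:43313498-43313587, minus strand: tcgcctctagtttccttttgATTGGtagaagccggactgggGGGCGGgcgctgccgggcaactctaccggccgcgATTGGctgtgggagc
FADS1, chr11:61817174-61817253, minus strand: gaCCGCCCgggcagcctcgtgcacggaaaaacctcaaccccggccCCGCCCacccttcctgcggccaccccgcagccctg
ELOVL6, chr4:110198706-110198765, minus strand: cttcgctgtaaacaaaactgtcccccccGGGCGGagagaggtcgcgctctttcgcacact

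Each stretch lies upstream of its start, for example 250 to 171 bases before it in *SCD* and 175 to 86 bases before it in *HMGCS1*. The windows of *SCD* and *HMGCS1* each held a pair of CCAAT boxes in the printed stretch, whereas those of *FADS1* and *ELOVL6* held none in their whole length. CCAAT boxes were present in 14 of 20 members of the fatty acid branch and in 14 of 16 members of the sterol branch with a window. By outcome, 8 of 16 members that fell and 20 of 22 members that were not called held one. For the GC box these were 16 of 16 and 20 of 22. For the E-box they were 2 of 16 and 4 of 22, and for the sterol regulatory element 0 of 16 and 1 of 22. Members called higher are left out of this split. Since 15 of 19 members of the sterol branch were not called, the splits by outcome and by branch overlap. These are counts of letters in a short window, given with no test, and they do not show binding.

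Libraries held 12808922 to 15241394 counts, so that 3 counts in a library corresponded to 0.198 to 0.236 CPM, the count of a gene relative to its TMM-scaled library total. IGROV1Sen replicate 1 and IGROV1Res replicate 3 were low in mitochondrial counts, with 7.02% and 6.94% from mitochondrially encoded genes against 10.1% or more elsewhere. IGROV1Sen replicates 2 and 3 were the most alike pair. Their chi-square per degree of freedom was 1.47, near what counting error alone gives, against 11.9 to 32.7 for other pairs within a group. In IGROV1Res, replicate 2 was about as far from replicate 1 (11.9) as from replicate 3 (12.7). If IGROV1Sen replicates 2 and 3 came from 1 culture, SDs and p-values at n = 3 would overstate the replication. A fit with both summed is given below. Of 10 epithelial and ovarian carcinoma markers 7 had a row, and *WT1*, *MUC16* and *MSLN* had none. Their summed level was 1569 to 1731 CPM in IGROV1Sen and 2151 to 2539 CPM in IGROV1Res. *KRT18* (295 against 1063 CPM) and *KRT8* (7.94 against 53.8 CPM) rose and *FOLR1* fell (209 against 149 CPM). *PAX8* (832 against 819 CPM) and *KRT19* were not called. *EPCAM* (0.729 against 1.93 CPM) was called higher but passed the filter on low counts only through IGROV1Res, so its rise is a description. *KRT7* (0.124 against 0.847 CPM) was not tested. Of 6 fibroblast markers 4 had a row, with a sum of 20.3 to 23.3 CPM in IGROV1Sen and 28.6 to 45.5 CPM in IGROV1Res. *PDGFRB* was called higher and *COL1A1* lower. *LUM* (0.0262 against 1.64 CPM) was called higher but also passed the filter only through IGROV1Res, and *COL1A2* (0.0936 against 0.866 CPM) was not tested. Of 5 endothelial markers 2 had a row, with 114 to 142 CPM in IGROV1Sen and 175 to 178 CPM in IGROV1Res (*CDH5* higher). None of 6 leukocyte markers had a row. The part of these shifts in the members' values was not tested. Of tissues that make much lipid, 1 of 7 adipocyte markers (*LIPE*, 17.6 to 19.5 CPM over all 6 libraries) and 1 of 5 hepatocyte markers (*APOA1*, 0.661 to 2.12 CPM) had a row.

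Across the program, 18 members fell and 4 rose in IGROV1Res, and 25 were not called. Every log2 fold change below is IGROV1Res over IGROV1Sen, and calls rest on edgeR's quasi-likelihood test over all 13791 tested genes, at a threshold of 0.05 on the Benjamini-Hochberg adjusted p. Of all tested genes 35.7% were called, 17.4% as higher and 18.3% as lower. The share of members called lower was 38.3% and the share called higher was 8.51%. The groups did not overlap in CPM in 26 of 47 members and in 47.8% of all tested genes, so lack of overlap in a member is common in this comparison. Only 5 members, 1 higher and 4 lower, were called and also changed by 1 or more on the log2 scale, as were 10.4% of all tested genes. Among these 4, *ELOVL2* and *ELOVL4* had under 10 counts in every IGROV1Res library and passed the filter only through IGROV1Sen, so their falls are a description and no support for the direction of the branch. The median log2 fold change was -0.15 over the members and -0.01 over all tested genes. In bulk RNA, fewer cells expressing a gene and less of its RNA per cell cannot be told apart.

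The fatty acid and sterol branches differed in how many members were called. In the fatty acid branch 12 of 23 members fell and 3 rose, with a median log2 fold change of -0.34. Without *ELOVL2* and *ELOVL4*, as when at least 10 counts were required in every library, 10 fell and the median was -0.15. In the sterol branch 3 of 19 members fell and 1 rose, with a median of 0.04. Among the regulators 3 of 5 fell and none rose. The difference between the branches was not tested, since genes are not replicates.

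**Figure D1:**
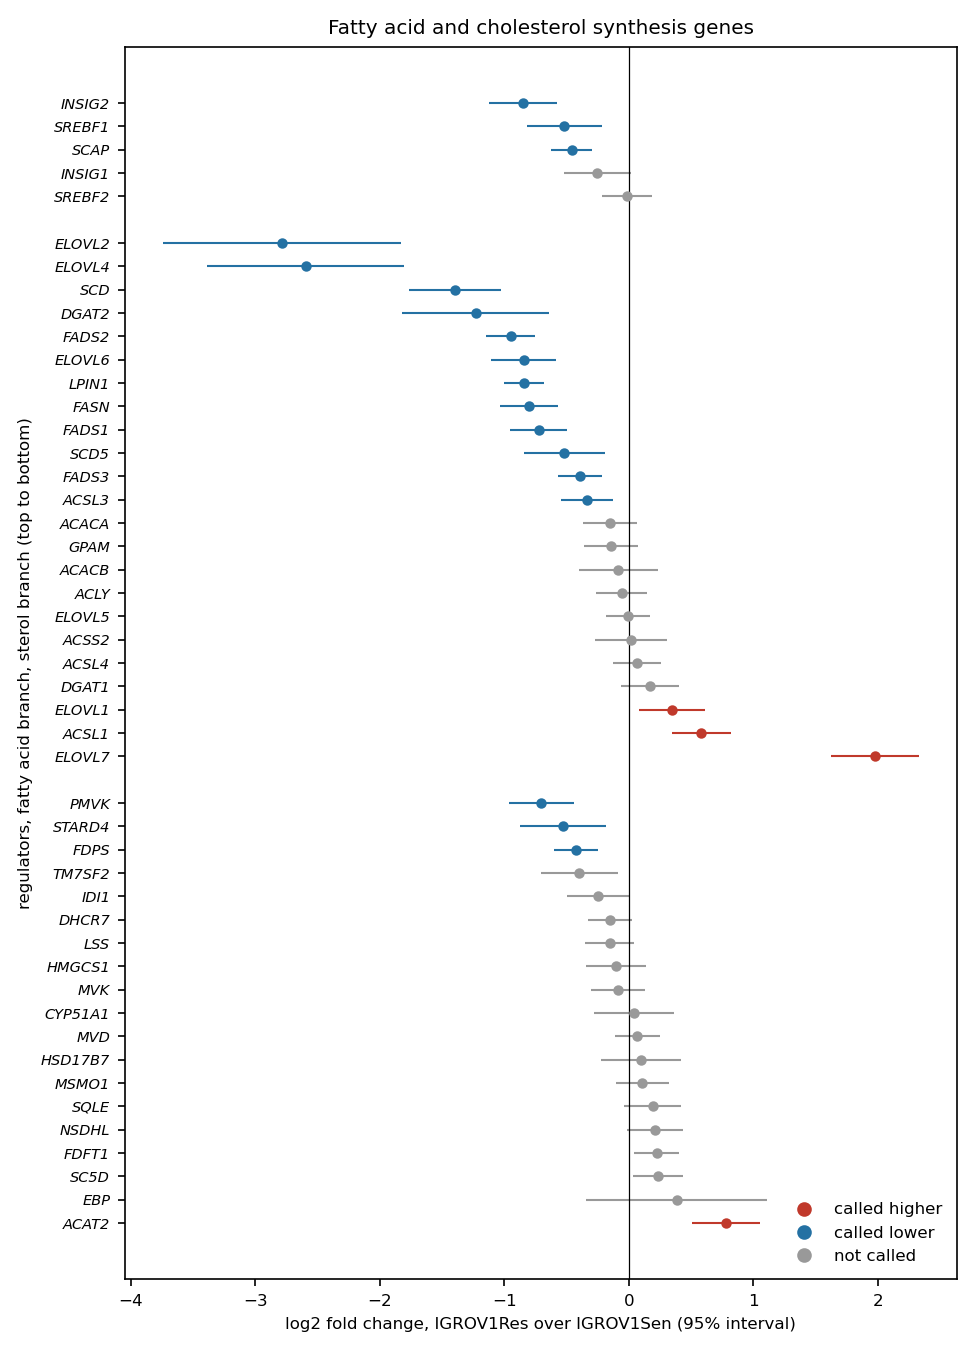
Log2 fold change of each of the 47 members (x axis, IGROV1Res over IGROV1Sen) with its 95% interval as a bar, grouped from top to bottom into regulators, fatty acid branch and sterol branch; blue points were called lower, red points higher and grey points not called. The fatty acid branch runs from -2.79 for *ELOVL2* to 1.98 for *ELOVL7*, and the sterol branch from -0.70 for *PMVK* to 0.78 for *ACAT2*.

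Summed over its members, the fatty acid branch took a smaller part of the RNA in every IGROV1Res library. The sums were 3544, 3518 and 3589 CPM in IGROV1Sen replicates 1, 2 and 3, and 2645, 2805 and 2484 CPM in IGROV1Res replicates 1, 2 and 3. The groups did not overlap, and the mean was 25.5% lower in IGROV1Res (3550 ± 36.1 against 2645 ± 160 CPM, mean ± SD, n = 3). *SCD* and *FASN* together made up 86.7% of this net fall, and the other 21 members summed to 2108 CPM in IGROV1Sen and 1987 CPM in IGROV1Res. Among these others, rises such as that of *ELOVL7* (23.7 against 93.4 CPM) offset part of the falls, such as that of *FADS1* (136 against 82.1 CPM). The sterol branch summed to 1705 ± 24.6 CPM in IGROV1Sen and 1702 ± 79.3 CPM in IGROV1Res, with overlapping libraries. The regulators summed to 955 ± 25.0 and 802 ± 72.5 CPM and did not overlap. These sums are given with no test, and genes with many reads weigh most in them.

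**Figure D2:**
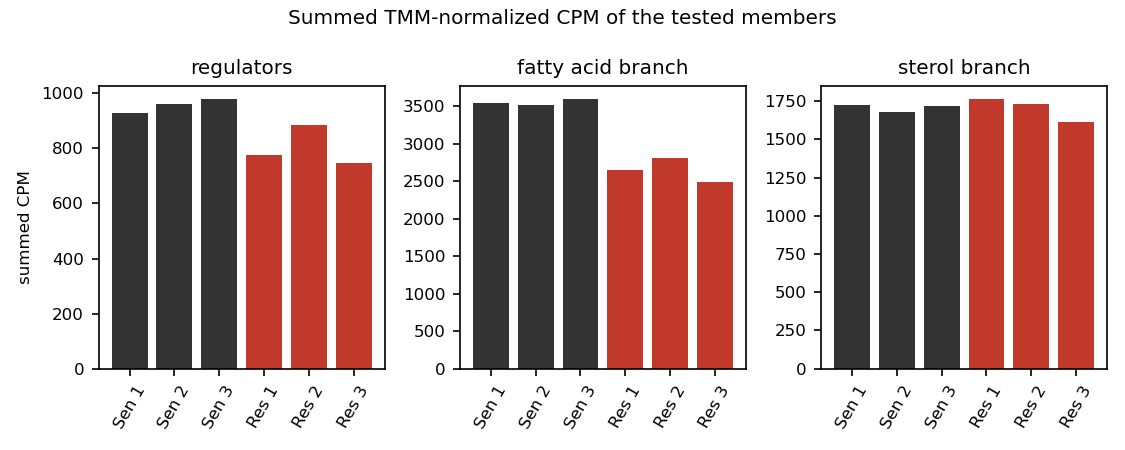
Summed TMM-normalized CPM (y axis, from 0) of the regulators, the fatty acid branch and the sterol branch in each library (x axis), with IGROV1Sen in black and IGROV1Res in red. The fatty acid sums are 3518 to 3589 CPM in IGROV1Sen and 2484 to 2805 CPM in IGROV1Res, while the sterol sums of the groups overlap.

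Among the regulators, *SREBF1* fell and *SREBF2* was not called. *SREBF1* encodes the precursor of SREBP-1a and SREBP-1c (chromosome 17, 17810399 to 17837002, minus strand, GRCh38, GENCODE release 29). It stood at 267, 286 and 281 CPM in IGROV1Sen replicates 1, 2 and 3 and at 170, 241 and 169 CPM in IGROV1Res replicates 1, 2 and 3. IGROV1Res replicate 2 was well above the other resistant libraries, yet below every sensitive library. The log2 fold change was -0.52 (SE 0.13, adjusted p = 0.0144, edgeR's quasi-likelihood test). Without IGROV1Res replicate 3 it was -0.43 and no longer passed (adjusted p = 0.0520, edgeR). Exons of *SREBF1* share 556 bases with *RAI1* on the other strand, which fell as well (-0.57), and the strand setting of the counting was not given in the sources used here.

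*SREBF2*, which encodes SREBP-2 (chromosome 22, 41833079 to 41907308), was measured at 385, 423 and 443 CPM in IGROV1Sen and at 413, 441 and 382 CPM in IGROV1Res. The groups overlapped fully. The log2 fold change was -0.02, with a 95% interval of -0.22 to 0.19 (adjusted p = 0.903, edgeR's quasi-likelihood test).

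The escort *SCAP* (chromosome 3) fell from 144, 141 and 140 CPM in IGROV1Sen to 105, 99.0 and 106 CPM in IGROV1Res. Libraries of a group lay close together and the groups were well separated. The log2 fold change was -0.46 (SE 0.07, adjusted p = 0.00114, edgeR's quasi-likelihood test). Other genes on chromosome 3 were shifted in the same direction, with a median of -0.27 over the chromosome and -0.25 over the 66 tested genes within 2 Mb of *SCAP*, and the part of this shift in the *SCAP* value was not tested.

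The retention factors *INSIG1* and *INSIG2* differed in their calls. *INSIG2* (chromosome 2) was at 20.6, 24.1 and 25.5 CPM in IGROV1Sen and at 13.7, 13.0 and 12.3 CPM in IGROV1Res. The groups did not overlap, and it fell 1.80-fold (log2 fold change -0.85, SE 0.12, adjusted p = 0.000671, edgeR's quasi-likelihood test). *INSIG1* (chromosome 7), itself a classical SREBP target, was at 112, 86.5 and 88.8 CPM in IGROV1Sen and at 73.4, 89.7 and 77.6 CPM in IGROV1Res. Its groups overlapped through IGROV1Res replicate 2, and its log2 fold change of -0.25 had a 95% interval of -0.52 to 0.02 (adjusted p = 0.130, edgeR). Whether the changes of *INSIG1* and *INSIG2* differed from each other was not tested.

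In the fatty acid branch, the enzymes that supply and join the carbon units were mostly not called, with *FASN* as the exception. *FASN*, fatty acid synthase (chromosome 17), was at 528, 594 and 574 CPM in IGROV1Sen and at 344, 348 and 280 CPM in IGROV1Res. All resistant libraries were far below all sensitive libraries. It fell 1.75-fold (log2 fold change -0.80, SE 0.10, adjusted p = 0.000383, edgeR's quasi-likelihood test). *ACLY*, which makes cytosolic acetyl-CoA from citrate (chromosome 17), had the highest mean CPM of the branch over all 6 libraries (656 CPM, *SCD* 605). It was at 740, 630 and 638 CPM in IGROV1Sen and at 628, 661 and 640 CPM in IGROV1Res. IGROV1Sen replicate 1 was above all other libraries and the groups overlapped. Its log2 fold change was -0.06 (SE 0.09, adjusted p = 0.653, edgeR's quasi-likelihood test). *ACSS2*, which makes acetyl-CoA from acetate, and the acetyl-CoA carboxylases *ACACA* and *ACACB* had log2 fold changes between -0.15 and 0.02. Their groups overlapped and none was called. The 95% interval of *ACLY* was -0.26 to 0.15, which does not reach the fall of *FASN*.

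All 5 desaturases fell. *SCD*, stearoyl-CoA desaturase, which makes oleate and palmitoleate (chromosome 10, 100347124 to 100364834, plus strand), had the highest mean CPM of the branch in IGROV1Sen, but not in IGROV1Res. It was at 812, 881 and 939 CPM in IGROV1Sen and at 326, 421 and 253 CPM in IGROV1Res. The highest resistant library, replicate 2, was below the lowest sensitive library by a wide margin. *SCD* fell 2.63-fold (log2 fold change -1.39, SE 0.16, adjusted p = 0.00023, edgeR's quasi-likelihood test). The 44 tested genes within 2 Mb of *SCD* had a median of -0.18, with 3 called higher and 10 lower, and the part of this shift in its value was not tested. Per kilobase of exon, *SCD* had the highest level of all members in IGROV1Sen (164 CPM per kb, *ACLY* 128 and *SQLE* 94.2), and in IGROV1Res it stood at 62.2 CPM per kb, below *ACLY* (123) and *SQLE* (108).

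*FADS2*, the first desaturase of polyunsaturated fatty acid synthesis (chromosome 11), was at 53.9, 57.7 and 57.4 CPM in IGROV1Sen and at 28.8, 31.2 and 27.5 CPM in IGROV1Res. The groups were far apart, and it fell 1.93-fold (log2 fold change -0.95, SE 0.09, adjusted p = 5.37e-05, edgeR's quasi-likelihood test). Its neighbor *FADS1*, which acts later in the same pathway, fell by 0.72 on the log2 scale (136 ± 13.5 against 82.1 ± 7.21 CPM). *FADS3*, a sphingoid base desaturase of the same cluster, fell by 0.39 (151 ± 5.43 against 115 ± 7.07 CPM). *SCD5*, a second stearoyl-CoA desaturase on chromosome 4, fell by 0.52 (41.1 ± 4.38 against 28.7 ± 5.45 CPM). The call of *SCD5* was lost without IGROV1Res replicate 2 (-0.38, adjusted p = 0.0675, edgeR). The 16 tested genes within 2 Mb of *SCD5* had a median of -0.29, with 2 called higher and 6 lower. The median over its chromosome was -0.22, and the part of this shift in the *SCD5* value was not tested. The median of the 66 other genes tested within 2 Mb of *FADS2*, which include *FADS1* and *FADS3*, was 0.09, with 9 called higher and 7 lower. The part of a local shift in the values of the *FADS* genes was not tested. *FADS1* and *FADS2* share 490 exonic bases on opposite strands.

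The 6 elongases moved in both directions. *ELOVL7*, which extends saturated very-long-chain fatty acids (chromosome 5), was at 28.0, 20.9 and 22.3 CPM in IGROV1Sen and at 114, 79.8 and 86.8 CPM in IGROV1Res. Every resistant library exceeded every sensitive library, with replicate 1 highest in each group. *ELOVL7* rose 3.94-fold (log2 fold change 1.98, SE 0.16, adjusted p = 2.07e-05, edgeR's quasi-likelihood test) and was the only member called higher by 1 or more on the log2 scale. The 9 tested genes within 2 Mb of *ELOVL7* had a median of 0.43, and the part of this shift in its value was not tested. *ELOVL1*, which makes very-long-chain saturated and monounsaturated acyl chains, was at 138, 104 and 106 CPM in IGROV1Sen and at 146, 138 and 157 CPM in IGROV1Res. IGROV1Sen replicate 1 came within 1 CPM of the lowest resistant library. The log2 fold change of *ELOVL1* was 0.35 (SE 0.12, adjusted p = 0.0449, edgeR), and the call was lost in 7 of the 18 other fits, with adjusted p up to 0.168 when IGROV1Sen replicate 3 was left out.

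*ELOVL4*, known for very-long-chain fatty acids of retina and skin, had only 31, 30 and 25 counts in IGROV1Sen and 5, 6 and 3 counts in IGROV1Res. These are levels of 2.44, 1.98 and 1.75 CPM against 0.365, 0.420 and 0.210 CPM, the last at the level that 3 counts stand for. The log2 fold change was -2.60 (SE 0.35, adjusted p = 0.000506, edgeR's quasi-likelihood test). *ELOVL2*, an elongase of polyunsaturated chains, was as scarce, with 22, 24 and 25 counts against 4, 5 and 1, and fell by 2.79 on the log2 scale. *ELOVL6*, which extends palmitate, fell by 0.84 from 63.5 ± 2.70 to 35.4 ± 5.70 CPM. *ELOVL5* was not called, at 177 ± 9.19 and 176 ± 8.16 CPM.

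Acyl-CoA synthetases, which activate fatty acids, did not move together. *ACSL1* (chromosome 4) was at 96.3, 75.9 and 77.6 CPM in IGROV1Sen and at 125, 117 and 131 CPM in IGROV1Res. The groups did not overlap, and it rose by 0.58 on the log2 scale (SE 0.11, adjusted p = 0.00242, edgeR's quasi-likelihood test). *ACSL3* fell by 0.34 (129 ± 9.66 against 102 ± 8.11 CPM), a call that was lost in 4 other fits, among them those without IGROV1Sen replicate 3, IGROV1Res replicate 1 or IGROV1Res replicate 3 (adjusted p = 0.0604, 0.0517 and 0.0525, edgeR). *ACSL4* was not called, with a log2 fold change of 0.07.

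Of the glycerolipid assembly genes 2 fell and 2 were not called. *LPIN1* encodes a phosphatidic acid phosphatase that makes diacylglycerol (chromosome 2). It was at 82.7, 82.7 and 82.7 CPM in IGROV1Sen and at 46.6, 45.5 and 46.4 CPM in IGROV1Res. Libraries within a group were nearly equal and the groups lay far apart, and it fell 1.79-fold (log2 fold change -0.84, SE 0.07, adjusted p = 3.38e-05, edgeR's quasi-likelihood test). *DGAT2*, which completes triacylglycerol synthesis, had 29, 48 and 39 counts in IGROV1Sen and 18, 17 and 14 counts in IGROV1Res and fell by 1.23. *DGAT1*, a distinct enzyme for the same step, and *GPAM*, a mitochondrial glycerol-phosphate acyltransferase, were not called, with log2 fold changes of 0.17 and -0.15.

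**Figure D3:**
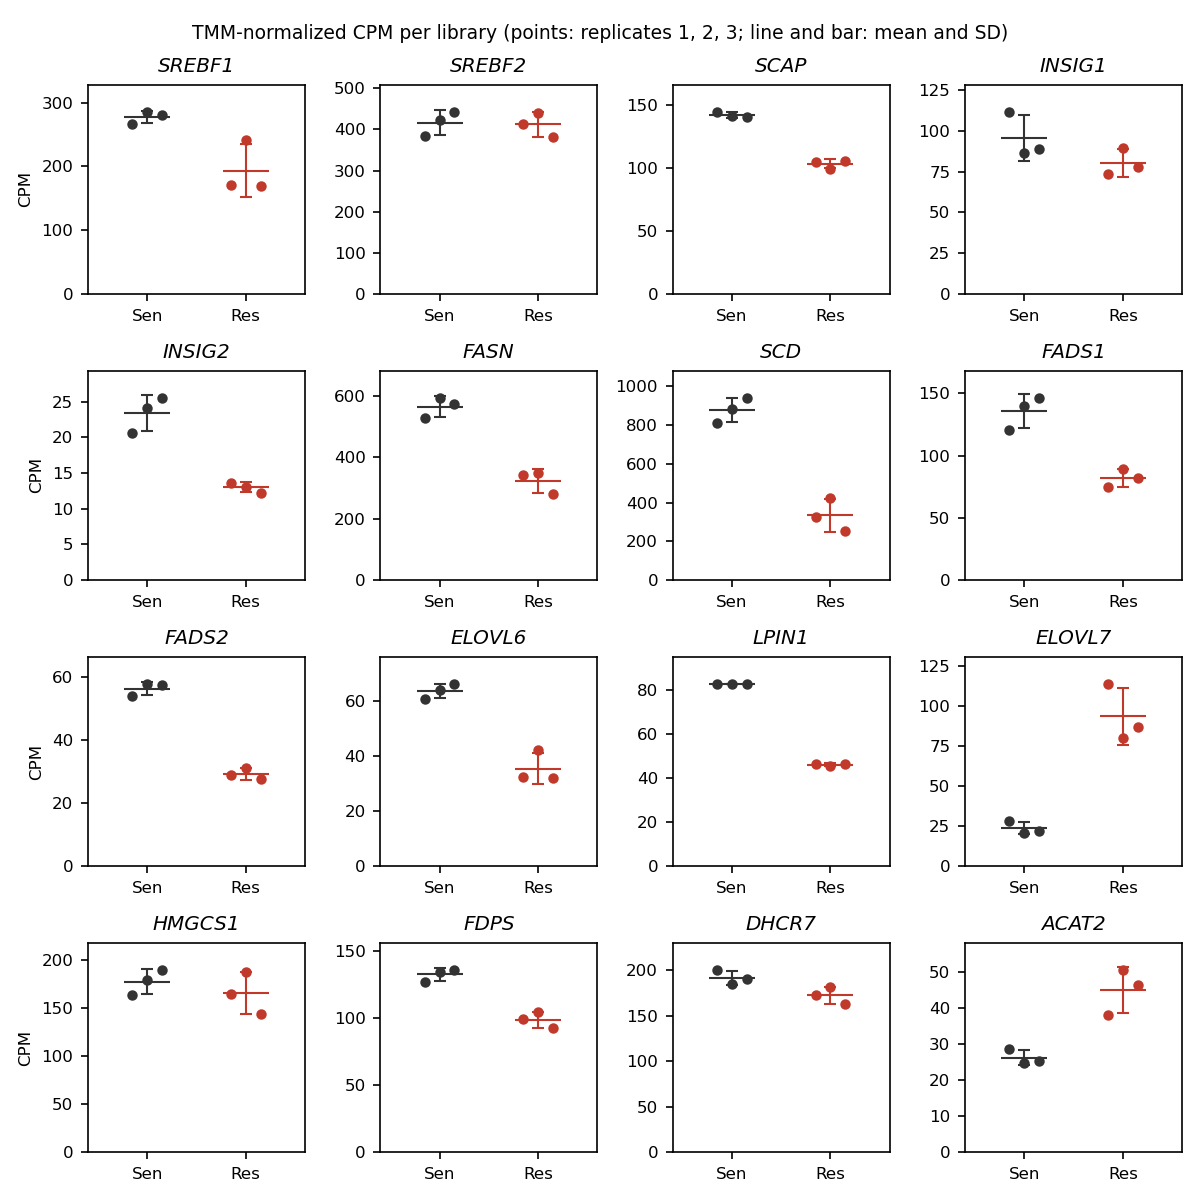
TMM-normalized CPM (y axis, from 0) of 16 members in each library; points are replicates 1, 2 and 3 of IGROV1Sen (black) and IGROV1Res (red), horizontal lines are means and bars are SDs. *SCD*, *FASN*, *FADS2* and *LPIN1* separate the groups fully, as does *ELOVL7* in the other direction, while *SREBF2* and *HMGCS1* overlap.

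In the sterol branch, the steps from acetyl-CoA to farnesyl diphosphate held 1 member that rose and 2 that fell. *ACAT2*, the cytosolic thiolase that starts the pathway (chromosome 6), was at 28.5, 24.8 and 25.4 CPM in IGROV1Sen and at 38.1, 50.4 and 46.4 CPM in IGROV1Res. All resistant libraries were higher, and it rose 1.71-fold (log2 fold change 0.78, SE 0.12, adjusted p = 0.00107, edgeR's quasi-likelihood test). Its exons share 397 bases with *TCP1* on the opposite strand, which was at 377 and 599 CPM and rose by a like amount (0.67). They share more with GENCODE units named *SOD2* (1141 bases) and *SOD2-OT1* (1458 bases), also on the opposite strand. Neither unit had a row under its identifier. Reads of these overlaps cannot be assigned without the strand, so the counts of *ACAT2* are less certain. The 25 tested genes within 2 Mb of *ACAT2* had a median of 0.30, with 14 called higher and 1 lower, and the part of this shift in its value was not tested.

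*PMVK*, phosphomevalonate kinase (chromosome 1), was at 52.3, 42.6 and 40.6 CPM in IGROV1Sen and at 27.4, 25.9 and 29.9 CPM in IGROV1Res. The groups did not overlap, and the log2 fold change was -0.70 (SE 0.12, adjusted p = 0.00157, edgeR's quasi-likelihood test). *FDPS*, farnesyl diphosphate synthase (chromosome 1), was at 127, 135 and 135 CPM in IGROV1Sen and at 99.4, 104 and 92.3 CPM in IGROV1Res. It fell by 0.42 (SE 0.08, adjusted p = 0.00296, edgeR). Its exons share 693 bases with *RUSC1-AS1*, and GENCODE names 8 pseudogenes of *FDPS*, none with a row, so its counts are less certain than those of most members. The tested genes within 2 Mb of *PMVK* (95 genes) and of *FDPS* (96 genes) had a median of -0.14 each. Of these, 13 were called higher and 20 lower around *PMVK*, and 13 higher and 21 lower around *FDPS*. The part of this shift in their values was not tested. *HMGCS1*, *MVK*, *MVD* and *IDI1*, which form HMG-CoA, phosphorylate and decarboxylate mevalonate, and isomerize isopentenyl diphosphate, had log2 fold changes between -0.25 and 0.07 and were not called.

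None of the 3 genes from squalene to lanosterol was called. *SQLE*, squalene epoxidase (chromosome 8), had the highest mean CPM of the sterol branch. It was at 434.6, 391.6 and 390.7 CPM in IGROV1Sen and at 527, 423 and 440 CPM in IGROV1Res. The groups overlapped because IGROV1Sen replicate 1 exceeded IGROV1Res replicate 2. The log2 fold change was 0.19, with a 95% interval of -0.04 to 0.42 (adjusted p = 0.177, edgeR's quasi-likelihood test). *FDFT1*, squalene synthase, was at 0.22 on the log2 scale and missed the threshold (adjusted p = 0.0571, edgeR), and *LSS*, lanosterol synthase, was at -0.15. Over the 457 tested genes of chromosome 8, which holds *SQLE*, *FDFT1* and *DGAT1*, the median was 0.39, with 228 called higher and 30 lower. All 3 members thus lay below the median of their chromosome, and the part of that shift in their values was not tested.

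None of the 8 genes from lanosterol to cholesterol was called either. *CYP51A1*, *MSMO1*, *NSDHL* and *HSD17B7*, which remove the methyl groups of lanosterol, had log2 fold changes between 0.04 and 0.21. *EBP*, a sterol isomerase, was measured with few counts (22 to 68 per library) and at 0.38, with a 95% interval of -0.34 to 1.11 that leaves its direction unknown. *SC5D*, a sterol desaturase, was at 0.23 and *DHCR7*, a sterol reductase, at -0.15. The libraries of *SC5D* and *DHCR7* did not overlap between groups, but neither passed the threshold after adjustment (adjusted p = 0.0656 and 0.155, edgeR). The 95% interval was 0.04 to 0.43 for *SC5D* and -0.33 to 0.02 for *DHCR7*. *TM7SF2*, a sterol reductase, lay at the threshold with -0.40 (adjusted p = 0.0501, edgeR). In GENCODE, *CYP51A1* shares 79.4% of its exonic bases with a longer transcript unit on the same strand, so its counts are less certain.

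*STARD4*, a cytosolic sterol transfer protein (chromosome 5), was at 29.2, 30.1 and 34.0 CPM in IGROV1Sen and at 22.4, 25.7 and 16.6 CPM in IGROV1Res. The groups did not overlap, and it fell by 0.53 (SE 0.15, adjusted p = 0.0254, edgeR's quasi-likelihood test). The call was lost in 5 other fits, among them those without IGROV1Sen replicate 2, IGROV1Sen replicate 3 or IGROV1Res replicate 3 (adjusted p = 0.0558, 0.0949 and 0.0605, edgeR).

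The libraries of IGROV1Res differed among themselves in a way that ran through the program. Replicate 2 was the highest of the 3 resistant libraries in 31 of 47 members (66.0%), against 27.3% of all tested genes, and replicate 3 was the lowest in 25 members (53.2%), against 35.6%. The share with replicate 2 highest was 65.2% in the fatty acid branch and 68.4% in the sterol branch. On the log2(CPM + 1) scale, replicate 2 exceeded the mean of replicates 1 and 3 by 0.10 on average over the members and by 0.01 over all tested genes. This spread within IGROV1Res entered the errors given above. It was seen in *SREBF1*, *SCD*, *ELOVL6* and *HMGCS1*, but not in *LPIN1*, *INSIG2* or *ELOVL7*. The pattern was noticed in the data and was not tested.

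**Figure D4:**
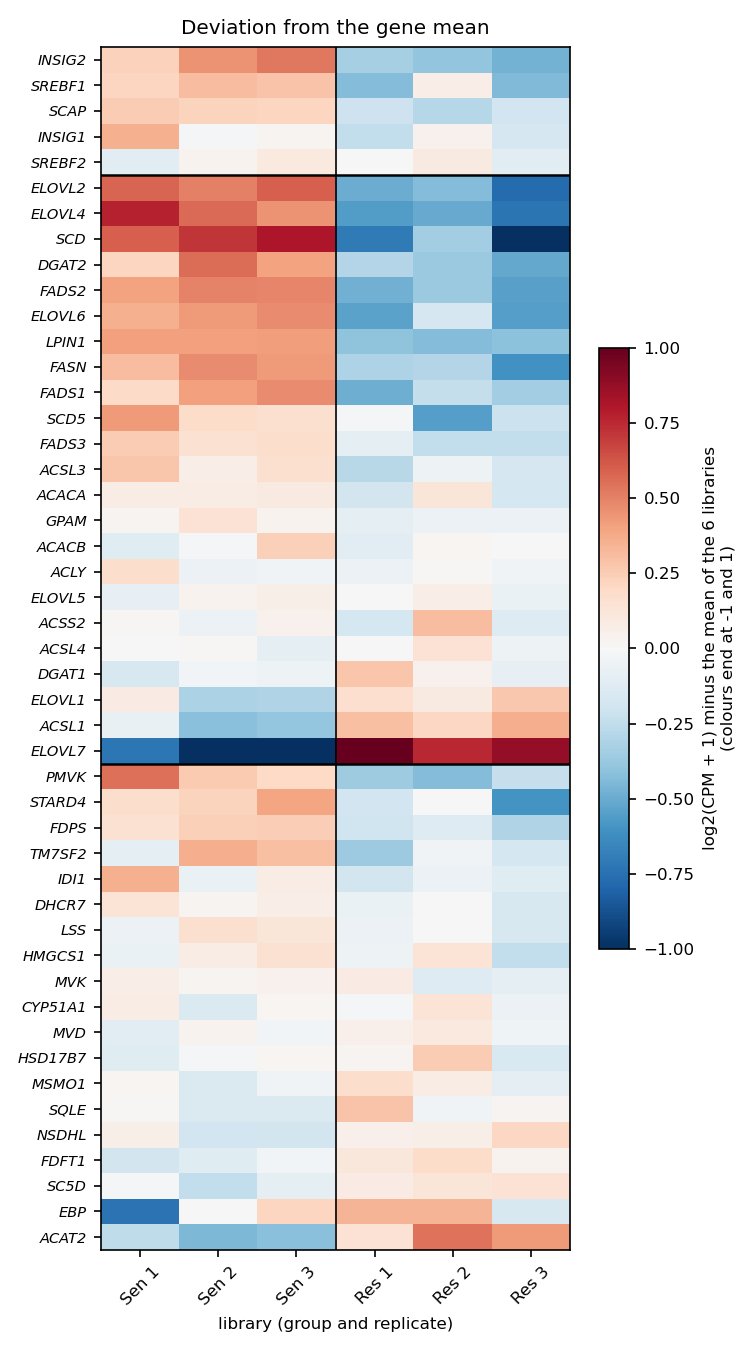
Deviation of log2(CPM + 1) from the mean of the 6 libraries for each member (y axis, ordered as regulators, fatty acid branch and sterol branch between black lines) in each library (x axis); red is above and blue below the gene's mean, with colors ending at -1 and 1. The fatty acid rows are mostly red in the 3 sensitive and blue in the 3 resistant libraries, and the column of IGROV1Res replicate 2 is redder than its neighbors in 31 of 47 members.

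Genes around the program were described from 7 further lists that share no member with it. In the list of SREBP processing and INSIG turnover, 2 of 15 tested genes rose and 3 fell (median 0.15). *ERLIN2*, part of the complex that degrades sterol-regulated proteins, rose by 0.72 on the log2 scale (SE 0.08) and its partner *ERLIN1* fell by 0.43 (SE 0.09). *NR1H2*, a sterol-sensing nuclear receptor, rose by 0.35 (SE 0.08), and *TRIB1*, a pseudokinase linked to hepatic lipogenesis, fell by 1.18 (SE 0.08). *TRIB1* lies on chromosome 8 as *ERLIN2* does, and moved against the median of that chromosome.

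Of sterol uptake, esterification and efflux genes 3 of 16 rose and 4 fell (median 0.06). *NPC1*, which exports cholesterol from lysosomes, rose by 1.02 (SE 0.09) from 45.6 ± 3.04 to 92.4 ± 6.65 CPM. *APOE* rose by 3.35 (SE 0.43) from 3.24 ± 0.746 CPM, with 55.1, 26.8 and 17.2 CPM in IGROV1Res replicates 1, 2 and 3. *SOAT1*, which esterifies cholesterol, fell by 0.84 (SE 0.12). In the isoprenoid branch from farnesyl diphosphate 2 of 20 rose and 2 fell (median 0.16), with *FNTA*, a prenyltransferase subunit on chromosome 8, at 0.48 and *RABGGTA*, a Rab prenyltransferase subunit, at 0.37, and with *COQ2* of ubiquinone synthesis at -0.71 and *GGPS1*, geranylgeranyl diphosphate synthase, at -0.37.

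Of genes for cytosolic acetyl-CoA and NADPH supply 4 of 18 rose and 1 fell (median 0.09). The subunits of the mitochondrial pyruvate carrier went in opposite directions, with *MPC2* at 1.12 (SE 0.13) and *MPC1* at -0.85 (SE 0.11). Among genes for fatty acid uptake, binding and lipid droplets 4 of 17 rose and 3 fell (median 0.11). *MGLL*, which hydrolyzes monoacylglycerol, rose by 2.35 (SE 0.20) and the fatty acid transporter *SLC27A4* by 0.41, while the fatty acid binding protein *FABP3* fell by 1.29 and the droplet protein *PLIN4* fell by 1.21.

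In mitochondrial fatty acid oxidation 7 of 21 genes fell and none rose (median -0.16), among them *HADH*, which acts in the oxidation cycle (-0.69, SE 0.10), and the acylcarnitine carrier *SLC25A20* (-0.80, SE 0.15). In phosphatidic acid and phospholipid synthesis 5 of 23 rose and 2 fell (median 0.09), with the glycerol-phosphate acyltransferases *GPAT4* (chromosome 8) at 0.52 and *GPAT3* at -0.96, with *AGPAT2* of the following step at -0.66, and with *PISD*, which makes phosphatidylethanolamine, at 0.47. The genes of these lists named here all passed the test (adjusted p up to 0.0376, edgeR's quasi-likelihood test), and the shares called stand beside 17.4% higher and 18.3% lower over all tested genes.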

How the data were processed

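RNA of IGROV1Sen and IGROV1Res cells was compared with 3 libraries per group, grouped by the labelled sensitivity to GDC0032. The authors deposited raw read counts per Ensembl gene, made from single-end reads and passed through a quality filter whose rule, like the aligner, counter and strand setting, was not given in the sources used here. The submitters' processing notes name hg18 and edgeR. The other table as deposited by the authors pairs identifiers with symbols and holds their own fold changes and p-values, of which only the symbols were used. Coordinates came from GENCODE release 29 (GRCh38), where 14611 of 14646 identifiers were found. Pairing of libraries by replicate number was checked by correlating deviations from group means. This gave -0.46, 0.11 and -0.47 for numbers 1, 2 and 3, so the numbers were not taken as pairs. Across numbers the values ran from -0.52 (IGROV1Sen replicate 2 with IGROV1Res replicate 3) to 0.61 (IGROV1Sen replicate 1 with IGROV1Res replicate 3). The latter 2 are the libraries low in mitochondrial counts, and a design with group alone does not model this shared spread.

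With edgeR 4.0.16 in R 4.3.3, low genes were removed (filterByExpr at a count of 10 and a total of 15), libraries were scaled by TMM, and the groups were tested by glmQLFit and glmQLFTest on a design with group alone, and p-values were adjusted over all tested genes. Intervals are 95% intervals. Steps were tested on simulated data. Members described with every library's value were the regulators, up to 5 called members per direction and branch with the smallest adjusted p, and the member with the highest mean CPM per branch. From each other list up to 2 called genes per direction were named, and the results of some genes under this rule are not reported here. Members and lists were chosen with earlier results of these data known. Totals limit the precision through counting error only. Alternatives were the likelihood ratio test, DESeq2 1.42.0, other factors and filters, a replicate block and other call rules. Each library was also left out, the libraries low in mitochondrial counts were left out together, and IGROV1Sen replicates 2 and 3 were summed. Further fits left out mitochondrially encoded genes or, for the factors, chromosome 8.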

Additional observations from a re-analysis of the deposited data

How the results depend on the processing

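Of the 22 called members, 17 kept their call in each of the 18 other fits that gave them a value, 5 (*SREBF1*, *SCD5*, *ELOVL1*, *ACSL3* and *STARD4*) lost it in at least 1, and 0 changed sign. Uncalled members that passed in at least 1 fit were *FDFT1*, *TM7SF2*, *NSDHL* and *SC5D*. Members called higher were 4 as reported and 7 with IGROV1Sen replicate 1 and IGROV1Res replicate 3 left out together, where the sterol branch had 4 called higher and the fatty acid median was -0.28. The sterol branch had 2 members called higher with DESeq2, with no composition factor, with mitochondrially encoded genes left out and with chromosome 8 left out of the factors. When a call also needed a change of 1 on the log2 scale, members called were 1 higher and 4 lower. All were of the fatty acid branch (1 higher and 4 lower), with 0 in either direction in the sterol branch. Of these 4, *ELOVL2* and *ELOVL4* passed the filter only through IGROV1Sen, and *DGAT2* held 14 to 18 counts in each IGROV1Res library. These counts are therefore a description and no support for a difference between the branches. With at least 10 counts in every library, which drops *ELOVL2* and *ELOVL4*, the fatty acid median was -0.15. Leaving out each library gave 3 to 6 members higher and 15 to 19 lower, 2 to 3 and 11 to 12 in the fatty acid branch, and 1 to 3 and 2 to 4 in the sterol branch, with 3 higher without IGROV1Sen replicate 1. Its medians were -0.39 to -0.28 for the fatty acid branch and -0.030 to 0.083 for the sterol branch, so the sign of the latter is not settled.

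With a replicate block, 3 members were higher and 17 lower, and *ELOVL1*, *ACSL3* and *STARD4* lost their calls (adjusted p = 0.0806, 0.0808 and 0.0724, edgeR) while *TM7SF2* gained one (adjusted p = 0.0371, edgeR). Over all genes, the block called 3262, 1530 higher and 1732 lower, against 4924, 2394 higher and 2530 lower, without it. Those called higher were 1572 without IGROV1Sen replicate 2 and 1538 without IGROV1Sen replicate 3. With IGROV1Sen replicates 2 and 3 summed into 1 library, 3497 genes were called, 1605 higher and 1892 lower. In that fit 3 members were higher and 17 lower. Depth limits *ELOVL2*, *ELOVL4*, *DGAT2* and *EBP* most, whose libraries held under 100 counts each.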
